A study of Homo sapiens with 6 samples.

Results

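The unfolded protein response of the endoplasmic reticulum (ER) was followed through 30 genes in RNA from the human neuroblastoma line SH-SY5Y, whose cells have an adrenergic, neuron-like character. The genes were listed by symbol, without use of their measured values, and all 30 of 30 were found among the 19610 gene rows of the count table. All 30 also passed the filter on low counts that left 12196 genes for testing. SGC707, which inhibits the arginine methyltransferase PRMT3, had been added to the cells of 3 libraries, and DMSO, its solvent, to those of 3 others. All 6 libraries are labelled as wild type, and the replicates of each group carry the letters A, B and C. The series set out to follow the inhibitor's effect on a microRNA, on the IGF1 receptor and on tau phosphorylation, and the ER genes were measured with all others. The sources used here do not give the dose, the time of exposure or whether the replicates were separate cultures, and the p-values then rest on a spread among libraries that may be technical.

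The ER folds secreted and membrane proteins with the help of chaperones and of enzymes that form disulfide bonds. When unfolded proteins build up, 3 sensors in its membrane, IRE1 (gene ERN1), ATF6 and PERK (gene EIF2AK3), raise the output of chaperone and degradation genes and slow translation. IRE1 acts by splicing the mRNA of the transcription factor XBP1, which gene counts do not show, and cleaved ATF6 and spliced XBP1 bind ER stress response elements (ERSE) in the promoters of their targets. In neuron-like cells the pathway is studied for its link to secretory load and to protein aggregation.

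The promoter windows of these genes are shown first because the ERSE is a sequence through which the pathway acts on targets. Windows of 250 bases before to 50 after a RefSeq transcription start (build GRCh38.p14) were searched on both strands for exact matches of the ERSE (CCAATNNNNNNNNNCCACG), of its second form ERSE-II (ATTGGNCCACG) and of the XBP1 element core (TGACGTGG, here UPRE core). Windows were found for 28 of the 30 genes, and not for PDIA3 and DERL1. An ERSE lay in the windows of 7 of the 28 genes (25.0%), against 15 of 9870 tested genes with a window (0.152%). Counted by window, it lay in 9 of their 36 (25.0%), against 27 of all 35116 windows (0.0769%). ERSE-II lay in the windows of 3 genes, HYOU1, SDF2L1 and HERPUD1 (10.7%, against 0.152% of tested genes). By window this was 8.33%, against 0.0541% of all windows. The UPRE core lay in that of 1 gene, HYOU1 (3.57%, against 1.22% of tested genes), where it overlapped an ERSE-II. By window this was 2.78%, against 0.729% of all windows. The tested genes and all windows include those of the 28 genes. The 30 genes were listed for this pathway and the motifs are those of its targets. The shares therefore describe the list and are not a test of it. A match describes letters in this window and does not show binding. Variants of the motifs were not searched, so a window without an exact match may still hold one.

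The window of HSPA5, which encodes the main Hsp70 chaperone of the ER (BiP), lies on the minus strand at chr9:125241294-125241593, with the letters of its ERSE in capitals:

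HSPA5: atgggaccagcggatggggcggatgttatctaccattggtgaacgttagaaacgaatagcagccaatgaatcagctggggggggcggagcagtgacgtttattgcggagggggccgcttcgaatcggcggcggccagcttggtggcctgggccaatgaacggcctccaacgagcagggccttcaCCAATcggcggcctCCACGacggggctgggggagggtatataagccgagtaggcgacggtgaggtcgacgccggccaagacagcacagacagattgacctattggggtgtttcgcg

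The ERSE and ERSE-II sites of the other genes are printed in the direction of the motif, with its fixed letters in capitals, to show how the bases between them differ:

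HSP90B1, upstream site: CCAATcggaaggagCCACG

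HSP90B1, site nearer the start: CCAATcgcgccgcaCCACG

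CALR: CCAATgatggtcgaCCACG

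CANX: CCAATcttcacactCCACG

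PDIA6: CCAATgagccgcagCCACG

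CRELD2: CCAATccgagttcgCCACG

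XBP1: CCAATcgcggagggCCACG

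HYOU1, both sites: ATTGGaCCACG

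SDF2L1: ATTGGtCCACG

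HERPUD1: ATTGGgCCACG

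The sites of HSP90B1 lie at chr12:103930216-103930234 and chr12:103930321-103930339, that of CALR at chr19:12938384-12938402, that of CANX at chr5:179698778-179698796 and that of PDIA6 at chr2:10812853-10812871. Those of CRELD2 and XBP1 lie at chr22:49918554-49918572 and chr22:28800603-28800621. HYOU1 has its sites at chr11:119057274-119057284 and chr11:119057380-119057390, SDF2L1 at chr22:21642114-21642124 and HERPUD1 at chr16:56932025-56932035. The exact ERSE match of HSPA5 lies 66 to 48 bases before the start, and the site nearest to a start is that of XBP1, 52 to 34 bases before it.

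**Figure D1:**
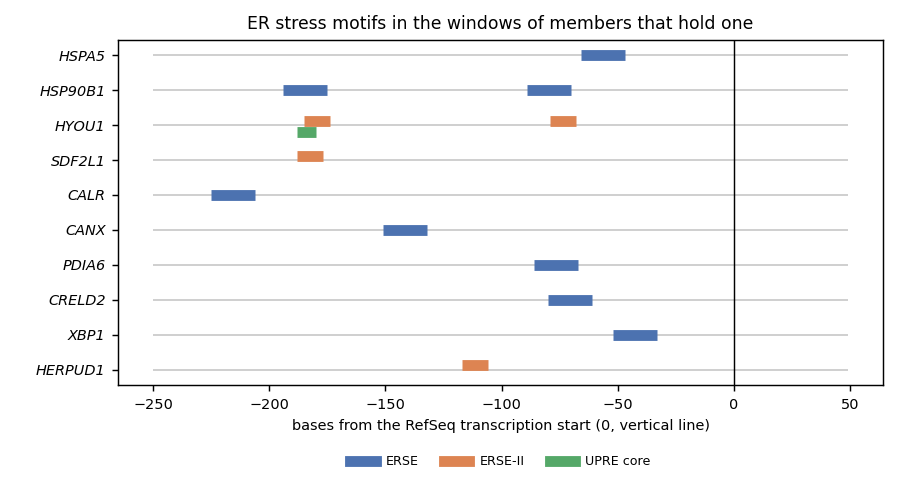
Positions of ERSE, ERSE-II and UPRE core matches in the promoter windows of the 10 genes that hold one, in bases from the RefSeq start (vertical line at 0). Gray lines are the windows; each gene has 1 to 3 matches, all of them before the start, and each position is counted from a start whose window holds the match.

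The libraries differed in ways that bear on these genes. Total counts were 11658728 to 15437602 per library, and mitochondrially encoded genes took 46.7% to 60.7% of them with DMSO and 24.3% to 37.7% with SGC707, so that 6066305 to 6327895 counts fell on nuclear genes with DMSO and 7559322 to 8999358 with SGC707. Levels below are normalised CPM, read counts relative to a library size that trimmed mean of M-values (TMM) scaling adjusts for such differences. SGC707 C stood apart in a trend with GC content (Spearman correlation across genes of -0.76 between its deviation from the gene means and transcript GC content, against -0.13 to 0.53 in the other 5). Adrenergic neuroblastoma markers, of which 11 of 12 were tested, summed to 5276 to 6432 normalised CPM with DMSO and 4337 to 4784 with SGC707. The catecholamine enzyme gene TH, one of the defining markers, was at 0 counts in all 6 libraries. Mesenchymal-state markers summed to 312 to 375 and 341 to 369, and markers of epithelial, blood, endothelial and glial cells to 1.47 to 1.98 and 0.967 to 1.70, with 7 of 12 at 0 throughout. The part of the adrenergic markers and of the mitochondrial share in the results below was not tested. On raw counts, mitochondrial genes included, no 2 libraries of a group agreed within sampling noise (chi-square over degrees of freedom, 12.4 or more). This value takes in their differences in mitochondrial share and in the GC trend, and was not taken for normalised nuclear genes alone.

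Levels differed widely among the genes. Counts were divided by transcript length and expressed relative to 1 common total over the tested nuclear genes of each library (TPM-like). On this scale CALR (calreticulin, a lectin chaperone) had the highest level at 1230 ± 180.3 (SD over the 6 libraries) and HSP90B1 (the ER Hsp90, GRP94) the next at 1135 ± 226.4, with ranges that overlap. PDIA6 followed, below the lowest library of both, at 579.9 ± 63.6, then CANX (calnexin) at 427.1 ± 162.7, HSPA5 at 410.0 ± 82.6, PDIA3 at 316.1 ± 13.9 and SEC61A1 at 302.1 ± 42.2, and from PDIA6 on each overlapped the next in range. The 3 lowest were DNAJC3 at 15.1 ± 3.26, CRELD1 at 13.8 ± 3.03 and ERN1 at 10.002 ± 1.61. Of the 30 genes, 22 stood above the median length-scaled level of the 12083 tested nuclear genes with a known length (35.4). ER chaperones and folding enzymes took the first places of this order, but DNAJC3, CRELD1 and SDF2L1 (20.5 ± 12.1), of the same roles, stood near its end. So did 2 of the sensors, EIF2AK3 (22.04 ± 1.59) and ERN1, with ATF6 at 44.5 ± 5.20. The length used was that of the longest coding transcript, and the order depends on that choice.

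**Figure D2:**
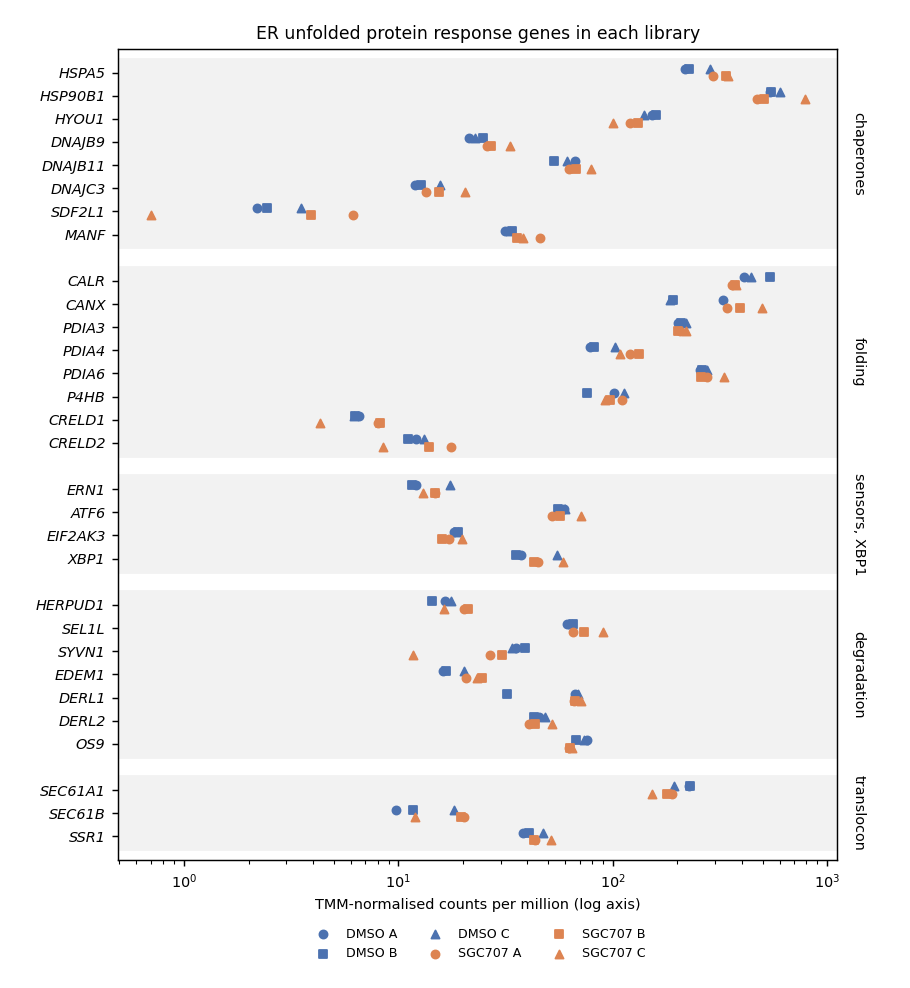
Normalised CPM (log axis) of each of the 30 genes in the 6 libraries, by role; blue points are DMSO, orange points SGC707, and the shape gives the replicate letter. The groups overlap in 19 of the 30 genes, and SGC707 C (orange triangle) is the highest library in 15 genes and the lowest in 6.

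No gene of the 30 passed the test between SGC707 and DMSO (edgeR quasi-likelihood test, adjusted p from 0.291 upward, Benjamini-Hochberg over 12196 genes). Over all tested genes 1 was called higher (0.0082%) and 2 lower (0.0164%). At an unadjusted p under 0.05, CANX, PDIA4 and HSPA5 were higher and HYOU1 was lower, that is 3 and 1 of 30 genes against 5.62% and 7.13% of all tested genes. The 3 SGC707 libraries all lay above the 3 DMSO libraries in 6 genes (HSPA5, DNAJB9, MANF, CANX, PDIA4 and EDEM1) and all below them in 5 (HYOU1, CALR, SYVN1, OS9 and SEC61A1), against 10.8% and 9.78% of all tested genes. Log2 fold changes were positive in 22 genes and negative in 8, with a median of 0.13, beside 52.8% positive and a median of 0.02 over all tested genes. All 8 negative values turned positive when library totals alone set the scale, and this shift is given at the end. Without DMSO B none of the 30 was under an unadjusted p of 0.05, and over all genes edgeR called 0 higher and 0 lower. The share of all genes under that unadjusted p was not taken in that fit. Without SGC707 C edgeR called 462 genes higher (3.73%) and 685 lower (5.53%), none of them among the 30 (smallest edgeR adjusted p = 0.0554). These counts carry no test. In bulk RNA, fewer cells of a kind and less RNA per cell cannot be told apart.

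Among the ER chaperones and their partners, 7 of 8 had a positive log2 fold change, with a median of 0.28, and none was called. The roles were set with earlier results of these data known, so counts and medians by role are descriptions only. HSPA5 (GRCh38 chromosome 9, 125234853 to 125241330) stood at 218.0, 225.8 and 282.9 normalised CPM in DMSO A, B and C and at 293.1, 338.3 and 344.8 in SGC707 A, B and C. All SGC707 libraries lay above all DMSO libraries, with DMSO C close to SGC707 A. Its means were 242.2 ± 35.4 and 325.4 ± 28.1 (SD, n = 3), or 0.43 as a log2 fold change (SE 0.15, 95% interval 0.07 to 0.78, edgeR adjusted p = 0.317), and it ranged from 0.35 to 0.55 with each library left out in turn.

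HYOU1 (chromosome 11, 119044189 to 119057202), the large Hsp70-like protein that exchanges nucleotide on BiP, lay on the other side. It stood at 152.7, 158.3 and 139.9 normalised CPM in DMSO A, B and C and at 120.1, 130.9 and 100.2 in SGC707 A, B and C. Every SGC707 library was lower than every DMSO library, and SGC707 C was the lowest. As a log2 fold change this was -0.36 (SE 0.15, 95% interval -0.71 to -0.01, edgeR adjusted p = 0.378), and it turned to 0.34 with library totals. HSPA5 and HYOU1, a chaperone and its exchange factor, differed in sign under TMM scaling, and both were positive with library totals (1.07 and 0.34). Neither was called. The window of HSPA5 holds an ERSE and that of HYOU1 holds ERSE-II and UPRE core matches, and a link between motif and direction was not tested.

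DNAJB9 (ERdj4), a J-domain partner of BiP, stood at 21.5, 24.9 and 22.9 normalised CPM under DMSO and 26.04, 27.0 and 33.0 under SGC707 (libraries A, B and C in order), or 0.31 as a log2 fold change (SE 0.17, edgeR adjusted p = 0.50). MANF, a secreted ER protein with neurotrophic activity, stood at 31.6, 33.7 and 33.3 under DMSO and 45.7, 35.8 and 38.1 under SGC707, or 0.28 as a log2 fold change (SE 0.16, edgeR adjusted p = 0.505). In both genes the groups lay apart by a small margin, and the highest library was SGC707 C for DNAJB9 and SGC707 A for MANF. Without that library the log2 fold change was 0.20 for DNAJB9 and 0.17 for MANF.

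The J-domain genes DNAJB11 (0.21) and DNAJC3 (0.29) had positive log2 fold changes with overlapping groups. Without SGC707 C these were 0.10 and 0.093. HSP90B1 (log2 fold change 0.06, 95% interval -0.42 to 0.54) stood at 471.8 and 507.6 normalised CPM in SGC707 A and B, below the 3 DMSO libraries (539.8 to 601.8), and at 784.3 in SGC707 C. Without SGC707 C its log2 fold change was -0.20. SDF2L1, a partner of ERdj3 in the chaperone complex, had the fewest counts of the 30 genes, from 9 in SGC707 C to 102 in SGC707 A. Its log2 fold change of 0.41 (95% interval -1.07 to 1.90) was 0.88 without SGC707 C and -0.22 without SGC707 A.

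Among the lectin chaperones, disulfide isomerases and CRELD proteins, 6 of 8 had a positive log2 fold change, with a median of 0.12, and none was called. CANX (chromosome 5, 179678628 to 179730925), the membrane-bound lectin chaperone, had the largest log2 fold change of the 30 genes in size with all 6 libraries. SYVN1 and SEC61B exceeded it in size without DMSO C, SYVN1 without SGC707 B, and SDF2L1 without SGC707 C. CANX stood at 328.4, 190.2 and 185.1 normalised CPM in DMSO A, B and C and at 339.5, 393.0 and 495.8 in SGC707 A, B and C. DMSO A lay well above the other 2 DMSO libraries and just under SGC707 A. As a log2 fold change this was 0.80 (SE 0.26, 95% interval 0.21 to 1.40, edgeR adjusted p = 0.291), and it was 1.12 without DMSO A and 0.64 without SGC707 C.

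CALR (chromosome 19, 12938578 to 12944489), the soluble lectin chaperone that works on the same glycoproteins as calnexin, had a negative log2 fold change. It stood at 410.2, 540.3 and 441.0 normalised CPM in DMSO A, B and C and at 359.5, 371.5 and 375.9 in SGC707 A, B and C. The SGC707 libraries lay close together and below all DMSO libraries, of which DMSO B was the highest. As a log2 fold change this was -0.33 (SE 0.15, 95% interval -0.67 to 0.01, edgeR adjusted p = 0.404), -0.21 without DMSO B and 0.36 with library totals.

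PDIA4 (ERp72, chromosome 7, 149003062 to 149028641), a disulfide isomerase, stood at 77.9, 81.6 and 102.5 normalised CPM in DMSO A, B and C and at 120.6, 132.5 and 108.6 in SGC707 A, B and C. The groups lay apart, with DMSO C and SGC707 C nearest to each other. As a log2 fold change this was 0.46 (SE 0.16, 95% interval 0.09 to 0.84, edgeR adjusted p = 0.309), and 0.39 to 0.59 with 1 library left out.

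The other disulfide isomerases lay near 0. PDIA3 (ERp57), which works with calnexin and calreticulin, had a log2 fold change of -0.01 (95% interval -0.29 to 0.28), PDIA6 (P5) one of 0.12 (95% interval -0.21 to 0.45, and 0.0075 without SGC707 C) and P4HB (PDI itself) one of 0.04 (95% interval -0.37 to 0.46). CRELD2, an ER stress-responsive protein with isomerase activity, and its paralog CRELD1 had 0.13 and 0.11, and both had their lowest library in SGC707 C.

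**Figure D3:**
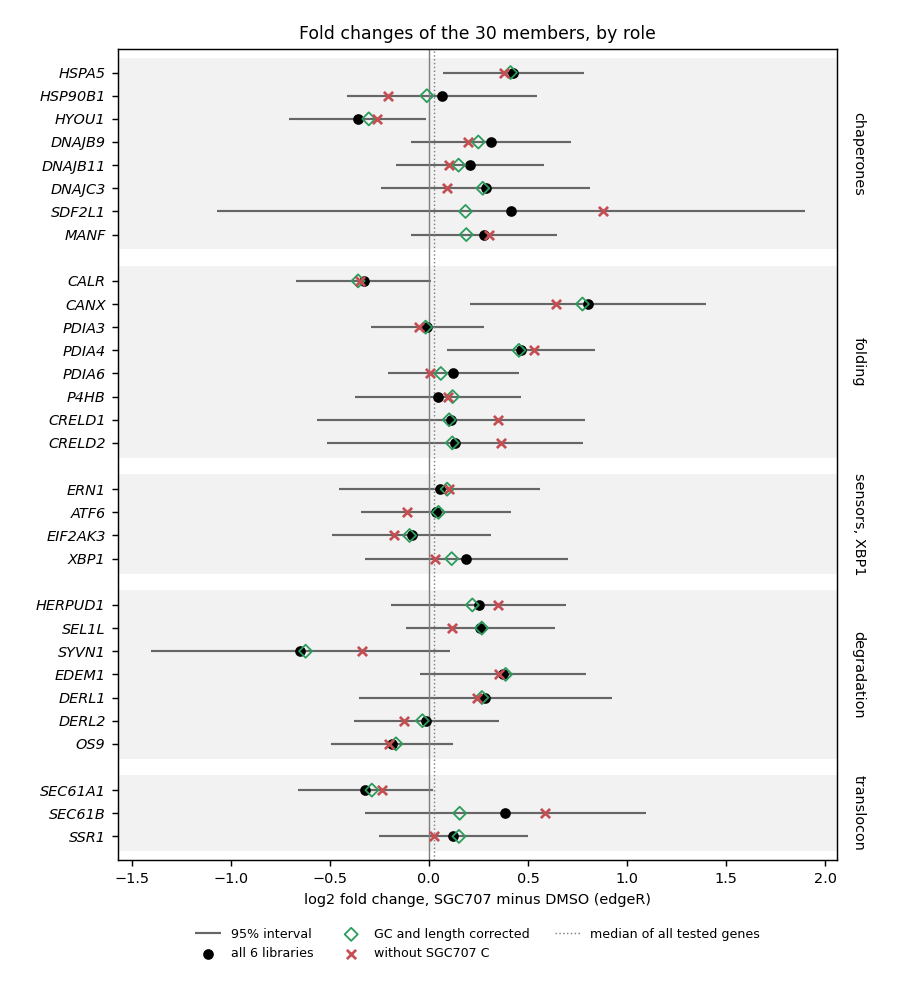
Log2 fold change of each of the 30 genes, SGC707 minus DMSO, with its 95% interval (black, edgeR, 3 libraries against 3), beside the value after a correction for GC content and length (green diamonds) and without SGC707 C (red crosses); the dotted line is the median of all tested genes. The intervals of HSPA5, CANX and PDIA4 lie above 0 and that of HYOU1 below it (it turns with library totals), and the widest interval is that of SDF2L1.

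The 3 sensors and XBP1 were the role with the smallest log2 fold changes, from -0.09 to 0.19, and none of the 4 had groups that lay apart. ERN1 stood at 12.1, 11.6 and 17.4 normalised CPM in DMSO A, B and C and at 14.8, 14.8 and 13.1 in the SGC707 libraries A, B and C, or 0.05 as a log2 fold change (95% interval -0.45 to 0.56, edgeR adjusted p = 0.942). ATF6 stood at 59.4, 55.7 and 60.0 under DMSO and 52.0, 56.7 and 70.9 under SGC707, or 0.03 as a log2 fold change (95% interval -0.34 to 0.41, edgeR adjusted p = 0.95). In both genes 1 library, DMSO C for ERN1 and SGC707 C for ATF6, lay above the rest.

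EIF2AK3 stood at 18.2, 19.0 and 19.0 normalised CPM under DMSO and 17.2, 16.0 and 19.7 under SGC707, or -0.09 as a log2 fold change (95% interval -0.49 to 0.31, edgeR adjusted p = 0.872). XBP1 stood at 37.5, 35.5 and 55.2 under DMSO and 44.7, 43.0 and 58.4 under SGC707, or 0.19 as a log2 fold change (95% interval -0.32 to 0.70, edgeR adjusted p = 0.754). The C library was the highest of each group for XBP1, and its log2 fold change was 0.41 without DMSO C and 0.03 without SGC707 C.

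In ER-associated degradation, which returns misfolded proteins to the cytosol, 4 of 7 genes had a positive log2 fold change, with a median of 0.25, and none was called. EDEM1, which sorts misfolded glycoproteins for degradation, stood at 16.2, 16.6 and 20.2 normalised CPM in DMSO A, B and C and at 20.6, 24.7 and 23.4 in the SGC707 libraries A, B and C, or 0.37 as a log2 fold change (SE 0.18, edgeR adjusted p = 0.445). SYVN1, the ubiquitin ligase HRD1, stood at 35.5, 38.9 and 33.8 under DMSO and 26.6, 30.5 and 11.7 under SGC707, or -0.65 as a log2 fold change (SE 0.33, 95% interval -1.40 to 0.11, edgeR adjusted p = 0.459). Its groups lay apart, but SGC707 C lay far below the other SGC707 libraries. Without SGC707 C the log2 fold change was -0.34, and with library totals 0.09.

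SEL1L, the partner that holds HRD1 in its complex, had a log2 fold change of 0.26 (95% interval -0.12 to 0.63), and 0.11 without SGC707 C. The lectin gene OS9 of the same complex stood at 67.6 to 75.8 normalised CPM with DMSO and 62.4 to 64.8 with SGC707 (-0.19). HERPUD1, a membrane scaffold of the complex, had 0.25, and 0.17 without DMSO B. DERL1 had 0.28, with 32.0 normalised CPM in DMSO B against 65.9 to 71.3 in the other 5 libraries, and its log2 fold change without DMSO B was 0.0028. Its paralog DERL2 had -0.01 (95% interval -0.38 to 0.35).

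Of the genes of protein entry into the ER, SEC61A1, the pore of the translocon, stood at 227.8, 229.6 and 193.1 normalised CPM in DMSO A, B and C and at 188.9, 179.6 and 152.3 in SGC707 A, B and C. The groups lay apart, with DMSO C close to SGC707 A, at a log2 fold change of -0.32 (SE 0.15, 95% interval -0.66 to 0.02, edgeR adjusted p = 0.420), which turned to 0.38 with library totals. SEC61B, the small subunit of the same pore, had 0.39 (95% interval -0.32 to 1.09), with groups that overlap, and ranged from 0.20 without DMSO A to 0.68 without DMSO C. SSR1, of the translocon-associated complex, had 0.12 (95% interval -0.25 to 0.50), and 0.03 without SGC707 C.

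Genes with a positive and with a negative log2 fold change stood on both sides of a split by motif. Of the 10 with a motif, 8 had a positive log2 fold change, with a median of 0.16 and a range of -0.36 to 0.80. Of the 18 with a window and no motif, 13 were positive, with a median of 0.12 and a range of -0.65 to 0.46. CANX and HSPA5 were among the highest of the first set and HYOU1 and CALR were its 2 lowest. PDIA4, SEC61B and EDEM1, without a match, stood near HSPA5. This comparison carries no test.

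GC content moved with the position of SGC707 C in these genes. Against the mean of SGC707 A and B on the log2 scale, 18 genes were higher and 12 lower in SGC707 C. All 11 genes of under 45% GC were higher, and all 5 of over 56% GC were lower: SDF2L1 (-2.81), SYVN1 (-1.29), CRELD1 (-0.92), CRELD2 (-0.88) and P4HB (-0.17). The Spearman correlation with GC content was -0.81 across the 30 genes and -0.77 across 12062 tested genes. These are descriptions across genes of the same 3 libraries, and genes are not independent replicates. After a correction for GC content and length, HSPA5 (0.41), CANX (0.77), PDIA4 (0.45), HYOU1 (-0.30), CALR (-0.36) and SYVN1 (-0.62) had log2 fold changes close to those above. The same correction gave 0.18 for SDF2L1, 0.16 for SEC61B, 0.06 for PDIA6, 0.11 for XBP1 and 0.12 for P4HB, and HSP90B1 turned to -0.01. It lowered the smallest edgeR adjusted p of the 30 genes from 0.291 to 0.097, with none called. Over all genes it gave 9 calls higher and 55 lower.

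**Figure D4:**
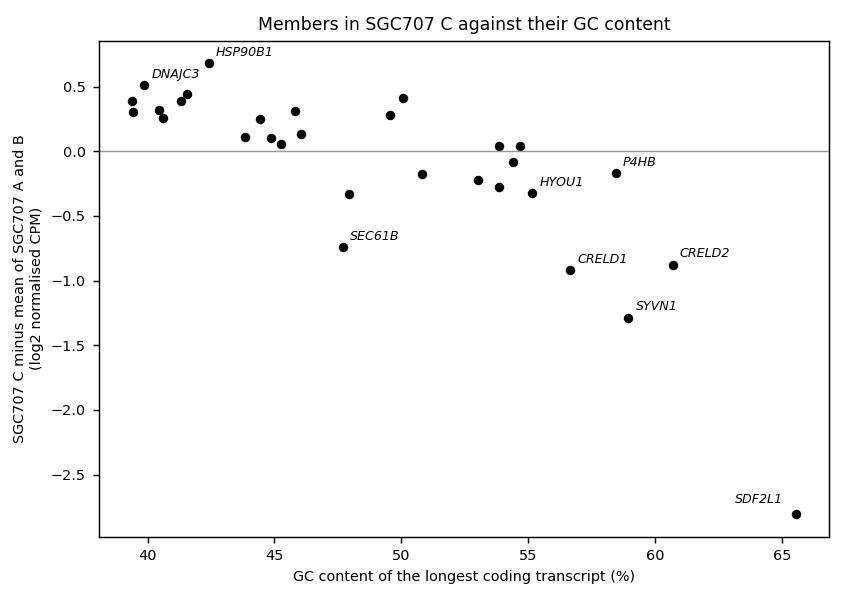
Difference between SGC707 C and the mean of SGC707 A and B (log2 normalised CPM) against the GC content of the longest coding transcript, 1 point for each of the 30 genes. The 11 points under 45% GC lie above 0 and the 5 points over 56% below it, with SDF2L1 lowest at 65.5% GC, and between them points lie on both sides.

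The other genes of the pathway, in 6 lists of 114 genes of which 109 were tested, gave no call by edgeR with all 6 libraries. Without SGC707 C, edgeR called 7 of 110 higher (UBE2G2, TRIB3, DDOST, PRKCSH, SSR4, SRPRB and ERP29) and 4 lower (SRP72, ERO1A, TXNDC12 and SRP14), beside 3.73% and 5.53% of all genes tested in that fit. The adjusted p was then 0.0278 for DDOST, 0.0289 for ERO1A, 0.0303 for SRP14 and 0.0402 for UBE2G2 (edgeR). The lists were drawn up with earlier results of these data known, so their counts and medians are descriptions only. Of the PERK and ATF4 branch, 11 of 13 tested genes had a positive log2 fold change, with a median of 0.23. PPP1R15B, a phosphatase subunit that reverses the PERK signal, had the smallest p of this list and stood at 88.6 ± 8.14 normalised CPM under DMSO and 116.6 ± 5.58 under SGC707 (SD, n = 3), or 0.40 as a log2 fold change (edgeR adjusted p = 0.308). ATF4, the transcription factor of this branch, had 0.13 (95% interval -0.33 to 0.60), with 67.1 normalised CPM in SGC707 C against 107.5 and 108.9 in B and A. Its log2 fold change was 0.02 without SGC707 A and 0.33 without SGC707 C (edgeR adjusted p = 0.060). DDIT3 (CHOP), its proapoptotic target, had 0.39 (95% interval -0.22 to 1.01), and 0.25 without DMSO B.

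Of the sensor partners and related transcription factors, 10 of 16 were positive (median 0.05), and NFYC, a subunit of the factor that binds the CCAAT part of the ERSE, stood at 36.2 ± 6.87 and 22.2 ± 3.84 normalised CPM (SD, n = 3), or -0.71 as a log2 fold change (edgeR adjusted p = 0.270). Of the oxidative folding enzymes, 10 of 18 were positive (median 0.19), and ERO1A, the oxidase that recharges PDI, stood at 127.4 ± 24.5 and 75.7 ± 16.2 (SD, n = 3), or -0.75 as a log2 fold change (edgeR adjusted p = 0.263). Both genes had all SGC707 libraries below all DMSO libraries, but with library totals NFYC stood at -0.016 and ERO1A at -0.080.

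Of N-glycosylation and glycan trimming, 12 of 16 were positive (median 0.20), with DDOST, a subunit of the oligosaccharyltransferase, at 0.63 (edgeR adjusted p = 0.305). Of the other translocation genes, 11 of 22 were positive (median -0.01), and SRP14, of the signal recognition particle, stood at 242.0 ± 12.04 and 163.7 ± 13.9 normalised CPM (SD, n = 3), or -0.56 as a log2 fold change (edgeR adjusted p = 0.202), which turned to 0.13 with library totals. Of the other degradation genes, 17 of 24 were positive (median 0.10), and UBE2G2, a ubiquitin-conjugating enzyme of the pathway, stood at 117.6 ± 0.685 and 152.6 ± 4.02 (SD, n = 3), or 0.38 as a log2 fold change (edgeR adjusted p = 0.291). Over the 6 lists, 10 of 109 genes were higher and 5 lower at an unadjusted p under 0.05, beside the 5.62% and 7.13% of all tested genes given above. These counts were 1 and 3 without DMSO A or without DMSO B, fits in which the shares of all tested genes were not taken.

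Another tool and another scaling give the bounds of these calls. DESeq2 called none of the 30 genes (smallest adjusted p = 0.115), beside 0.392% of all genes higher and 2.01% lower, with CANX, PDIA4 and HSPA5 higher and HYOU1 and SYVN1 lower at an unadjusted p under 0.05. The share of all genes under that unadjusted p was not taken for this tool. DESeq2 called SRP14 lower (DESeq2 adjusted p = 0.0282). Scaling by library totals alone, which leaves in the difference in mitochondrial share, called 11 of the 30 higher, beside 21.1% of all genes, and moved their median to 0.81 and that of all tested genes to 0.69. On that scale 20 of the 30 were higher and 0 lower at an unadjusted p under 0.05, beside 48.8% and 0.443% of all tested genes. The groups lay apart in 19 on the higher side and 0 on the lower, beside 49.5% and 0.771%. Of the other pathway genes, 43 of 109 were called higher on that scale, PPP1R15B, DDOST and UBE2G2 among them (edgeR adjusted p = 0.0435 for each).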

How the data were processed

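Isolated mRNA of 6 samples was made into libraries and sequenced as paired reads, per the labels' protocols. The deposited table holds raw read counts per gene symbol, made by the authors with no scaling between libraries. HISAT2, StringTie and the build GRCh38 are named per the submitters' processing notes. The sources used here name no annotation, strand setting or rule for shared reads, which leaves the counts of paralogs, pseudogenes and overlapping genes uncertain.

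The test was that of edgeR 4.0.16 in R 4.3.3 (filterByExpr, TMM, glmQLFit with robust estimation, glmQLFTest, no covariate), with Benjamini-Hochberg adjustment over all 12196 tested genes and a threshold of 0.05. Standard errors are the log2 fold change over the root of F. Alternatives used DESeq2 1.42.0, limma 3.58.1 (voom), RLE factors, library totals, no filter, a filter at 1 CPM in 3 libraries with mean counts of at least 50, each library left out, the replicate letter as a block, no mitochondrial genes, a threshold of 0.01, and a lowess correction (span 0.3) for GC content and length, alone and with the block. Deviations of same-lettered libraries of the 2 groups had r of 0.08, -0.02 and 0.10, beside -0.11 to 0.10 between libraries of different letters. The fit was tested on simulated data. Coordinates, lengths and GC content of the longest coding transcript came from GENCODE on GRCh38 and promoter windows from RefSeq. Figures were drawn with matplotlib 3.10.9.

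Roles, pathway lists and the genes named (all 30, library values for HSPA5, XBP1, the sensors and the 10 smallest p, and in each pathway list the smallest p, with ATF4 and DDIT3) were chosen with earlier results of these data known; SDF2L1, HSP90B1, DERL1 and OS9 have library values because of those values, and the pathway genes called without SGC707 C were named after their calls were seen.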

Additional observations from a re-analysis of the deposited data

How the results depend on the processing

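With library totals alone, edgeR called 2574 genes higher and 31 lower, 11 of the 30 ER genes higher, 20 of them higher and 0 lower at an unadjusted p under 0.05, and 19 and 0 with groups apart, beside 48.8%, 0.443%, 49.5% and 0.771% of all tested genes. Their median was 0.81 and that of all tested genes 0.69. The 8 that turned were HYOU1 (0.34), CALR (0.36), PDIA3 (0.65), EIF2AK3 (0.57), SYVN1 (0.088), DERL2 (0.63), OS9 (0.48) and SEC61A1 (0.38), and SRP14 turned to 0.13. All genes gave 47 calls higher and 241 lower with DESeq2, 9 and 55 with the GC and length correction, 0 higher with limma-voom, 5 lower with no filter and 0 and 0 at a threshold of 0.01. Of the 30, DESeq2 put 2 lower at an unadjusted p under 0.05, and the GC correction 5 higher and 4 lower, with 3 apart on the lower side and HSP90B1 at -0.011. Shares of all tested genes at these cuts were not taken for DESeq2, the GC correction, the block or the fits without 1 library. The replicate block gave 0 and 0 calls and 2 of the 30 lower at an unadjusted p under 0.05. With the GC correction the replicate block gave 1 call lower, 3 of the 30 lower at that unadjusted p, 3 apart on the lower side and HSP90B1 at -0.018. A block uses up degrees of freedom whether or not the letters pair the libraries, which is not known. With each library left out in turn, all genes gave 0 to 462 calls higher and 0 to 685 lower, with the extremes without SGC707 C. The 30 then had 0 to 3 higher and 0 to 3 lower at an unadjusted p under 0.05, 6 to 11 apart on the higher side, and a median of 0.082 to 0.21. With fewer libraries, groups lie apart more readily in any gene. Without the shares of all tested genes, these counts describe no trait of the 30. The sign held in 21 of the 30 and turned in ERN1 (-0.055 to 0.26), P4HB (-0.11 to 0.16), ATF6 (-0.11 to 0.13), PDIA3 (-0.049 to 0.022), DERL2 (-0.13 to 0.064), SDF2L1 (-0.22 to 0.88), CRELD1 (-0.038 to 0.35), CRELD2 (-0.12 to 0.36) and HSP90B1 (-0.20 to 0.20). The stricter filter left out SDF2L1, which had 9 to 102 counts per library. The cause of these shifts was not tested.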
